A study of Mus musculus with 18 samples.

Results

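The erbB2-negative fraction of a 1:1 co-culture of Comma-D and MMTV-neu cells was compared with unmixed Comma-D cells on whole-transcript mouse gene arrays. The comparison takes up 6 of the 18 arrays of the series, 3 of the fraction and 3 of Comma-D, chosen by their sample titles. Comma-D cells descend from the normal mammary epithelium of a mouse. MMTV-neu cells are tumour cells of a mouse model in which the mouse mammary tumour virus promoter drives erbB2 (neu) in the mammary epithelium. The co-culture was detached with trypsin, incubated with an antibody to erbB2 and magnetic beads, and passed through a column. The fraction described here is the one that the column did not retain, which the submitters annotate as normal and as negative for erbB2 and phosphorylated erbB2. Both groups had grown in the low-serum Comma-D medium, a DMEM/F12 with insulin and EGF. MMTV-neu cells had grown in another DMEM medium, so for that line cells and medium cannot be told apart. The labels do not say whether unmixed Comma-D cells had gone through the antibody and column steps, so co-culture and sorting cannot be told apart in this comparison. Nor do they say that replicates were separate cultures, so p-values measure the spread between these arrays, which may be technical. In a sorted pool, a change within the cells and a change in the mix of cells cannot be told apart.

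The mammary epithelium has an inner luminal layer, marked by keratins 8, 18 and 19 and by E-cadherin, and an outer basal or myoepithelial layer, marked by keratins 5 and 14. Comma-D is known as a mixed line with progenitor activity that can rebuild ducts in a cleared fat pad. ErbB2 is a receptor tyrosine kinase of the EGF receptor family that has no ligand of its own and signals by pairing with EGFR, ErbB3 or ErbB4, and its downstream MAP kinase pathway induces its own inhibitors. In the 3 Comma-D arrays the log2 levels were 10.99, 10.99 and 10.96 for Krt14, 9.31, 9.37 and 9.35 for Krt18, and 9.35, 9.39 and 9.49 for Cdh1 (E-cadherin). All were above the array medians over all probe sets, 6.01 to 6.03. Signal for keratins of both layers was thus present. Probe sets differ in affinity, so levels are compared between arrays and not between genes.

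Of the 19938 genes tested, 7121 (35.7%) differed between the fraction and Comma-D at an adjusted p under 0.05 (limma, Benjamini-Hochberg over all genes). Higher levels in the fraction were found for 2963 genes (14.9%) and lower levels for 4158 (20.9%). Differences of at least 1 log2 unit were found for 560 genes (2.81%) and were mostly falls, with 72 genes higher (0.361%) and 488 lower (2.45%). Fraction replicate 1 decided many of the smaller differences. Without that array 2885 genes were called (14.5%), 857 higher (4.3%) and 2028 lower (10.2%), and 2851 of the 7121 calls remained in the same direction. Of the 560 calls of at least 1 log2 unit, 520 remained (92.9%). Leaving out Comma-D replicate 1 gave 4621 calls (23.2%) and leaving out Comma-D replicate 3 gave 3892 (19.5%). Each of the 6 arrays was left out in turn, and a gene named below kept its call in all 6 of these fits unless a lower number is given.

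Fraction replicate 1 stood apart over the whole array. Its correlation across genes, which are not independent replicates, was 0.9751 and 0.9611 with fraction replicates 2 and 3, which correlated at 0.9944 with each other. Within Comma-D the range was 0.9964 to 0.9972. On an axis through the means of both unmixed lines, drawn from 1641 genes that differed by at least 2 log2 units and set to 0% at Comma-D and 100% at MMTV-neu, the fraction arrays lay at 42.2%, 19.3% and 16.6%. The axis and the positions share the Comma-D arrays, so the positions are a description. The Comma-D arrays spread from -0.586% to 0.611% on that scale. Every fraction array therefore lay outside the spread of Comma-D, and replicate 1 lay farthest. The 1:1 erbB2-positive fraction lay at 80.5%, 66.7% and 61.0% and the 1:50 erbB2-negative fraction at 3.49%, 2.2% and 4.11%. The lines themselves differed in 17310 of the 19938 genes, with a median MMTV-neu minus Comma-D difference of 0.40 over all genes. For the 2 mitochondrially encoded genes measured that median was -6.97. Whether the quality of the MMTV-neu arrays had a part in the positions was not tested.

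**Figure D1:**
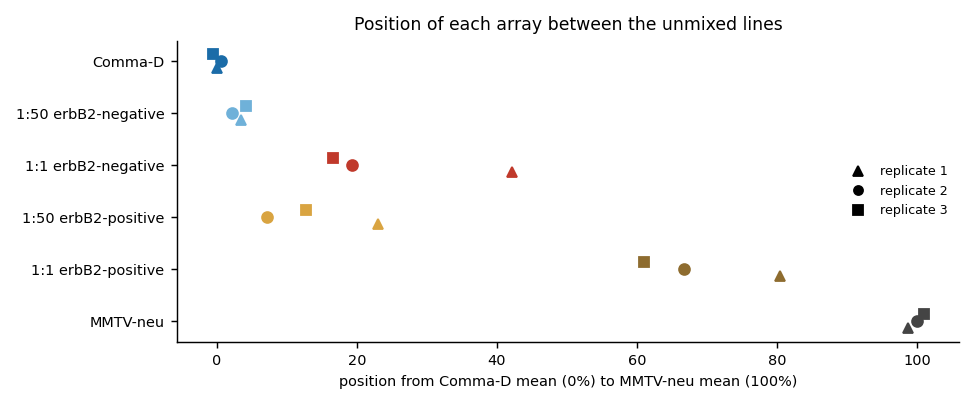
Position of each of the 18 arrays (points, 1 shape per replicate number) between the means of the unmixed lines, in percent, over 1641 genes, with 1 row per group. The 1:1 erbB2-negative arrays lie at 16.6% to 42.2%, with replicate 1 highest, and Comma-D lies within 1% of 0.

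The difference also depended on how high a gene stood in Comma-D. In the highest quartile of genes by Comma-D level the median difference was -0.50 (log2, fraction minus Comma-D; -0.87, -0.35 and -0.28 in replicates 1 to 3), and 53.5% of those genes were called lower. In the second quartile from the bottom the median was 0.28 and 33.2% were called higher. The median over all genes was 0.03. Without replicate 1 the median of the highest quartile was -0.32 (25.0% called lower). The standard deviation of the deposited values over all 35556 probe sets was 1.75, 1.88 and 1.91 in the fraction arrays and 1.97 to 1.99 in Comma-D. The range of values was thus narrower where the gradient, read over genes, was steeper. In MMTV-neu the standard deviation was 1.51 to 1.55. The part of this narrowing in the calls was not tested. Other scalings gave other splits: quantile normalization left 2349 calls, 50.1% of them higher, against 41.6% as deposited. Centring each array on 9 reference genes, which sat mostly in the highest quartile and 4 of which fell, shifted the all-gene median upward by 0.42 and made 91.3% of 9058 calls higher. Medians below are read against 0.03 over all genes and -0.50 in the highest quartile, and a list's direction after centring is given beside it. Counts of called members are read beside 14.9% higher and 20.9% lower over all genes. In the highest quartile the shares were 2.13% higher and 53.5% lower (1.38% and 25.0% without replicate 1).

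**Figure D2:**
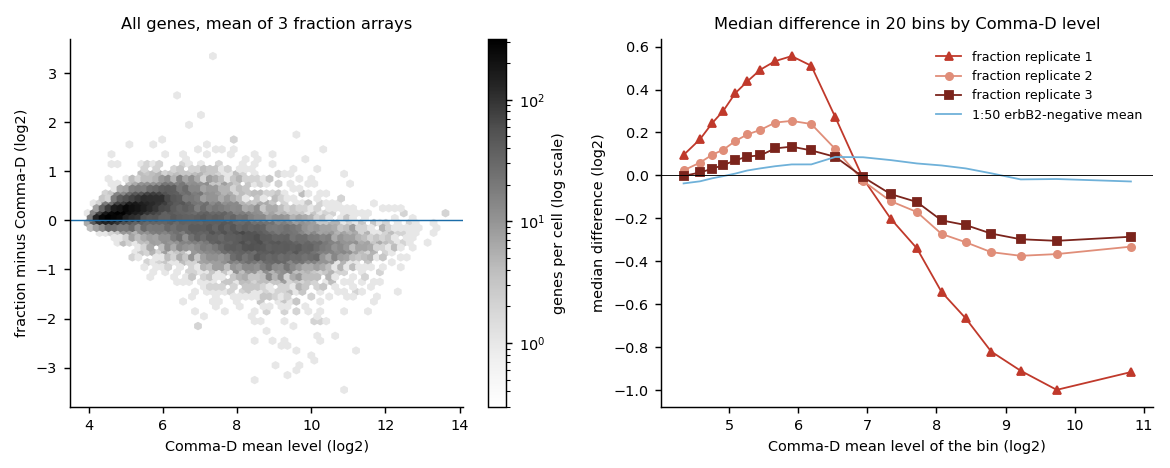
Left, difference between the mean of the 3 fraction arrays and Comma-D (log2) against the Comma-D level (log2), with shade for the number of genes on a log scale. Right, median difference in 20 bins of genes by Comma-D level for each fraction array and for the 1:50 erbB2-negative mean. All 3 fraction arrays are above 0 at low levels and below 0 at high levels, replicate 1 most, and the 1:50 line stays near 0.

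The gene that rose most was Krt8, the luminal keratin. Its log2 levels were 7.38, 7.7 and 7.15 in Comma-D and 11.12, 10.7 and 10.46 in the fraction. The groups were more than 2 units apart, and the difference of 3.35 (SE 0.19, 95% confidence interval 2.94 to 3.75, 10.2-fold, adjusted p = 1.19e-08) was 3.17 without replicate 1. In MMTV-neu the mean was 11.34, and in the 1:50 erbB2-negative fraction 7.9. C1qtnf3, a secreted protein of the C1q and TNF related family, rose from 6.39, 6.3 and 6.43 to 8.65, 9.38 and 8.55 (difference 2.49, SE 0.26, adjusted p = 1.07e-05). It stood above both lines, MMTV-neu having a mean of 8.07 (fraction minus MMTV-neu 0.79, adjusted p = 0.0111).

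Several other large rises were in genes that stood high in MMTV-neu. Foxa1, a pioneer factor of luminal cells, rose from 7.2, 7.7 and 7.23 to 9.37, 8.58 and 8.54 (difference 1.45, SE 0.21, adjusted p = 0.000225; mean of 10.1 in MMTV-neu). Hoxc10, a homeobox factor of posterior identity, was near the bottom of the scale in Comma-D at 4.9, 5.09 and 5.14 and reached 7.14, 6.18 and 6.36 (difference 1.52, adjusted p = 0.000291; 8.74 in MMTV-neu). In both genes replicate 1 was the highest fraction array and no array overlapped the other group. Mybl2, a cell cycle transcription factor, rose by 1.61 (adjusted p = 5.31e-05) and kept 1.53 without replicate 1. Dock6, an exchange factor for small GTPases, rose by 1.5 and Kcng1, a modulatory potassium channel subunit, by 1.49. Camta1, a calmodulin-binding transcription activator, rose by 1.68 on the probe set used, but its other probe sets gave 0.67, 0.16 and 0.09. The second probe set of Rps14, a ribosomal protein gene with a difference of 1.5 here, gave -0.68 (adjusted p = 0.136), so probe sets of both genes disagreed. Dock6 likewise had probe sets from -0.88 to 1.5.

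The largest fall was in Cyp2f2, a cytochrome P450 of xenobiotic metabolism, from 10.91, 10.94 and 10.93 to 7.21, 7.73 and 7.47 (difference -3.45, SE 0.21, 10.9-fold lower, adjusted p = 2.32e-08). Dcn, which encodes the matrix proteoglycan decorin, followed, from 8.55, 8.54 and 8.35 to 5.61, 5.16 and 4.96 (-3.24, SE 0.16, adjusted p = 2.58e-09). All 3 fraction arrays of Dcn were below their array medians, and the mean was below that of MMTV-neu (5.78; fraction minus MMTV-neu -0.53, adjusted p = 0.00627). Il6, the inflammatory cytokine, went from 9.5, 9.35 and 9.26 to 6.99, 5.79 and 5.76 (-3.19, SE 0.3, adjusted p = 3.12e-06). Here replicate 1 was the array closest to Comma-D, and without it the difference was -3.60.

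Several receptors and membrane proteins were among the other deep falls. Gabrp, the pi subunit of the GABA-A receptor, which is found in mammary epithelium, fell from 9.6, 9.51 and 9.59 to 6.4, 6.66 and 6.38 (-3.09, adjusted p = 2.1e-05). Ceacam1, a cell adhesion molecule, fell by 2.98 and Enpp3, an ectonucleotidase, fell by 2.87. Ghr, the growth hormone receptor, fell from 11.34, 11.25 and 11.26 to 8.32, 8.91 and 8.69 (-2.64, adjusted p = 8.81e-08). Itih2, a stabiliser of hyaluronan in the matrix, dropped by 2.93 and Lipk, a lipase of keratinised epithelium, dropped by 2.46. Tc2n differed widely among the fraction arrays, at 6.13, 6.5 and 8.02 against 9.51 to 9.62 in Comma-D, and C1s1, a complement protease, at 7.36, 6.66 and 6.37 against 9.21 to 9.29. All 15 of the largest falls were called in each of the 6 fits that left out 1 array, as were 14 of the 15 largest rises (microRNA genes and provisional models counted apart), Vnn1 losing its call without replicate 1 (adjusted p = 0.0562).

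**Figure D3:**
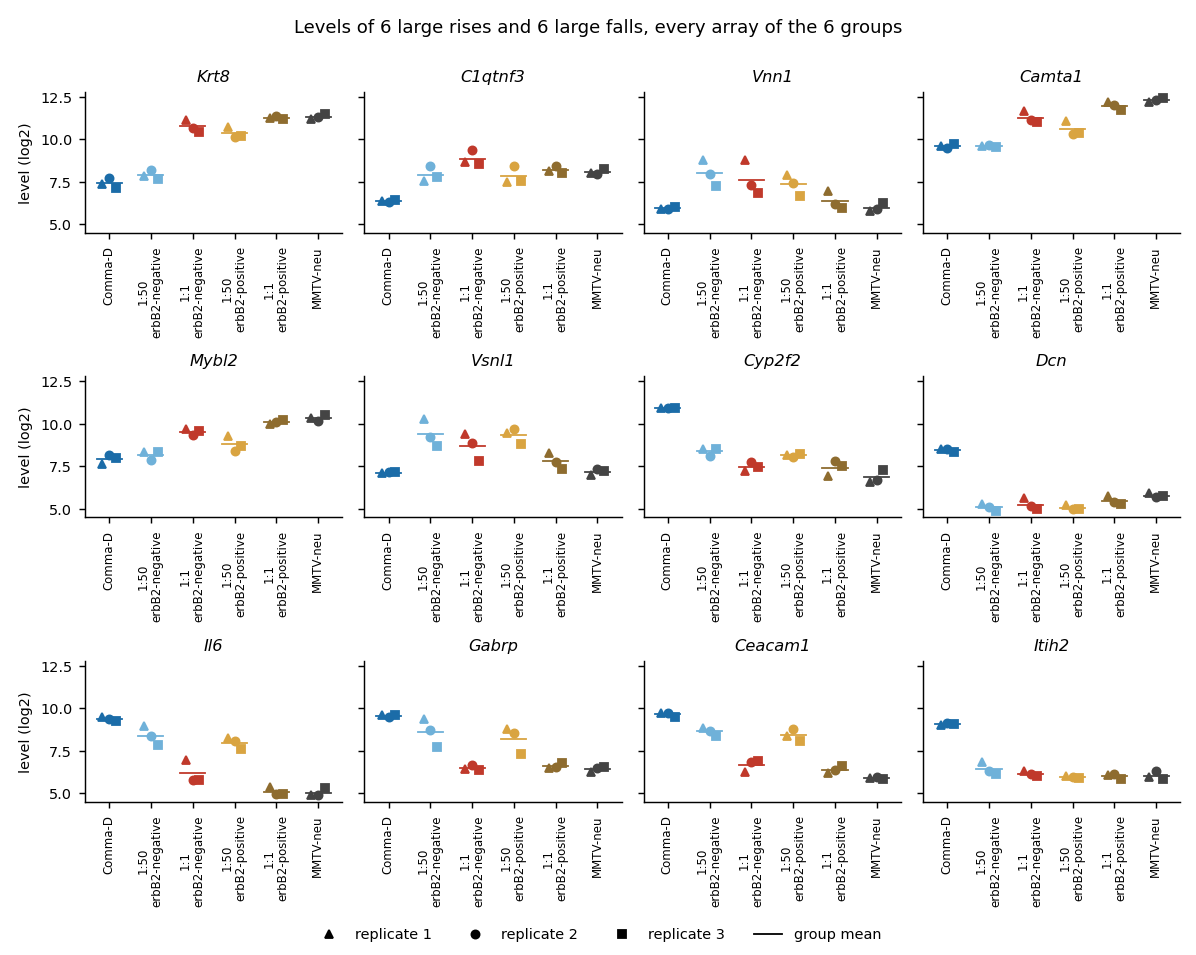
Log2 level of the 6 genes that rose most and the 6 that fell most, microRNA genes and provisional gene models left out, in each array of the 6 groups, with group means as lines. Krt8 reaches 10.46 to 11.12 in the 1:1 erbB2-negative fraction, near its mean of 11.34 in MMTV-neu, while Cyp2f2, Dcn and Itih2 are also low in the 1:50 erbB2-negative fraction.

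Luminal markers moved both ways. Of 26 measured, 5 rose and 10 fell (3 and 8 without replicate 1), and the median difference was 0.02, or 0.43 after centring, where 10 rose and 5 fell. Krt8, Foxa1 and Krt19 rose, Krt19 from 5.42, 5.67 and 5.2 to 6.24, 5.93 and 5.94 (0.60, adjusted p = 0.00603). Krt18, whose protein pairs with keratin 8, fell from 9.31, 9.37 and 9.35 to 8.3, 8.22 and 8.42 (-1.03, SE 0.1, adjusted p = 6.22e-06). Krt8 was thus above, and Krt18 below, Comma-D in all 3 fraction arrays. Krt7 fell by 0.81, a call that was lost after centring. Kit, a receptor of luminal progenitors, fell from 9.09, 9.14 and 9.22 to 6.33, 6.86 and 6.55 (-2.57, adjusted p = 5.84e-06). Ehf, an epithelial ETS factor, fell from 10.28, 10.26 and 10.28 to 7.3, 7.76 and 8.26 (-2.49, adjusted p = 2.09e-06).

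Several epithelial adhesion genes fell. Epcam, the epithelial cell adhesion molecule, stood at 9.57, 9.56 and 9.45 in Comma-D and 6.52, 8.04 and 8.41 in the fraction (-1.87, SE 0.39, adjusted p = 0.00293; -1.30 without replicate 1). Cdh1 stood at 7.19, 8.15 and 8.61 in the fraction (-1.43, adjusted p = 0.0011; -1.03 without replicate 1). For both genes replicate 1 was far the lowest and the other fraction arrays were still below all of Comma-D. Among 27 junction genes 11 fell and 3 rose (10 and 0 without replicate 1, by limma; 4 were higher at an unadjusted p under 0.05 with all arrays), with a median of -0.18 that turned to 0.23 after centring, where 7 rose and 6 fell. Cldn1, a tight junction claudin, fell from 7.26, 7.5 and 7.73 to 5.76, 5.65 and 6.0 (-1.69, adjusted p = 2.54e-05). Tjp1 (ZO-1), the scaffold of tight junctions, fell by 1.34, and the catenins Ctnnd1 and Ctnnb1 fell by 0.97 and 0.98. The desmosomal cadherin Dsg3, called in 5 of 6 fits, read 7.1, 9.2 and 8.64 in the fraction against 9.75 to 9.8, and its call was lost without replicate 1 (adjusted p = 0.0757).

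Few basal markers were called. Of 28 measured, 5 rose and 2 fell (2 and 1 without replicate 1), with a median of 0.11, or 0.53 after centring, where 12 rose. By Comma-D level 17 of the 28 lay in the highest quartile and 11 below it. Krt5 rose from 9.73, 9.87 and 9.72 to 10.96, 11.48 and 10.59 (1.23, SE 0.26, adjusted p = 0.00289). MMTV-neu had a mean of 7.71, so Krt5 lay above both lines, and the 1:50 erbB2-negative fraction read 11.3. Krt14 read 10.83, 11.32 and 10.8 against 10.96 to 10.99, overlapping arrays with a difference of 0.00 (adjusted p = 0.988). Igfbp3, an IGF-binding protein, rose from 6.49, 6.62 and 6.35 to 7.51, 7.54 and 7.48 (1.02, adjusted p = 0.000629). Jag2, a Notch ligand, rose by 0.77 (called in 5 of 6 fits; adjusted p = 0.0644 without replicate 1), and Krt6a, a keratin of stressed epithelium, fell by 0.77.

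Mesenchymal genes did not rise as a group. Of 25 measured, 7 fell and 1 rose, in the same numbers without replicate 1, with a median of -0.14, or 0.27 after centring, where 3 fell and 3 rose. The highest quartile by Comma-D level held 17 of the 25. Vim (vimentin) was 12.93, 12.93 and 12.95 in Comma-D and 12.48, 12.96 and 12.93 in the fraction (-0.14, adjusted p = 0.611), and Fn1 (fibronectin) differed by -0.43 (adjusted p = 0.0561). Both stood far lower in MMTV-neu, at 8.13 and 7.16. The repressors of E-cadherin Zeb1 and Zeb2 fell by 0.72 and 0.83, calls that were lost after centring. Mmp2, the gelatinase, fell from 10.09, 10.05 and 10.06 to 8.48, 8.76 and 8.38 (-1.53, adjusted p = 1.28e-06). Fbln5, an elastic fibre protein, fell by 1.26. Col1a2, which encodes a chain of type I collagen, rose from 6.49, 6.71 and 6.42 to 7.45, 7.35 and 7.14 (0.78, adjusted p = 0.000511).

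Collagens as a list of 21 had 7 that rose (3 without replicate 1; 8 were higher and 1 lower at an unadjusted p under 0.05), with a median of 0.14 and 0.55 after centring. Col7a1, the anchoring fibril collagen of the epithelial basement membrane, rose by 0.83 (adjusted p = 0.000278). Of 22 integrin and laminin genes 3 rose and 6 fell (3 and 1 without replicate 1), with a median of -0.27, or 0.14 after centring. Lama4 fell by 0.85, though not after centring, and Nid1, which links laminin to collagen IV, rose by 0.58 (called in 4 of 6 fits; 0.83 without replicate 1).

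Markers of other cell types were counted over their whole lists. Of 16 fibroblast markers 4 rose and 3 fell, with a median of -0.01, or 0.41 after centring. Beside Dcn, Pdgfra, the PDGF receptor of mesenchymal cells, fell from 10.61, 10.58 and 10.77 to 8.78, 8.25 and 8.04 (-2.30, adjusted p = 0.000315), and Fbln1 fell by 0.60. Thy1 rose from 5.96, 5.84 and 5.63 to 6.96, 6.35 and 6.14 (0.67, adjusted p = 0.00618). Of 14 endothelial markers 3 rose (13 after centring, 1 after quantile normalization), of 19 leukocyte markers 2 rose and 1 fell, and of 10 adipocyte markers 2 rose and 1 fell. After centring 13 leukocyte and 6 adipocyte markers rose and 1 of each fell, and without replicate 1 each of these 3 lists had 1 that rose. Their mean levels were 5.63 to 5.69, 5.43 to 5.47 and 5.63 to 5.64 in Comma-D and 5.78 to 6.23, 5.43 to 5.66 and 5.53 to 5.8 in the fraction, all near or below the array medians. The first listed markers of leukocytes (Ptprc), endothelium (Pecam1) and fat (Adipoq) differed by 0.21, 0.17 and 0.02 and were not called, though Ptprc and Pecam1 were called higher after centring. Members called higher were Vwf, Sox18 and Flt1 (endothelium), Csf1r and Cd3e (leukocytes), and Cidec and Pparg (fat). Of these only Flt1, Cd3e and Pparg stayed called without replicate 1, and their calls in the other fits are not given. The part of such cells in the differences was not tested. Cd14, which epithelial cells can also express, fell from 8.6, 8.76 and 8.63 to 6.1, 6.8 and 6.85 (-2.08, adjusted p = 3.12e-06), and Lpl, the lipoprotein lipase, fell by 1.59 (adjusted p = 8.83e-08).

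**Figure D4:**
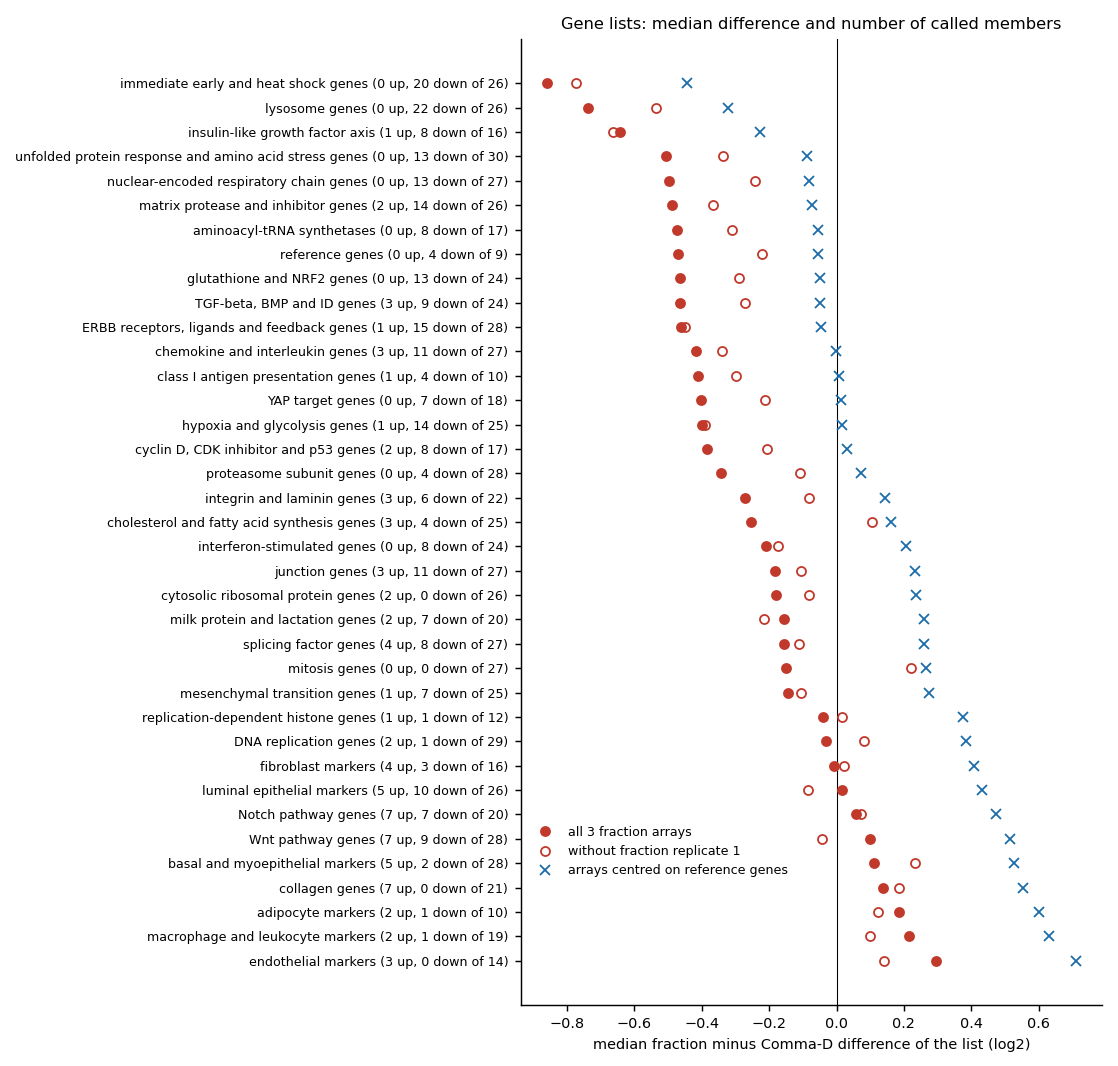
Median fraction minus Comma-D difference (log2) of each gene list with all 3 fraction arrays (filled), without replicate 1 (open) and after centring on reference genes (crosses), with counts of called members in the row names. Immediate early, lysosome and IGF genes are lowest under all 3 settings, and many lists between -0.5 and 0 move above 0 after centring.

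The receptor on which the cells were sorted was itself slightly lower by transcript. Erbb2 read 8.15, 8.32 and 8.12 in Comma-D and 7.87, 7.79 and 7.74 in the fraction (-0.40, SE 0.1, adjusted p = 0.00697), a difference that turned to 0.02 (adjusted p = 0.952) after centring. The probe set did not separate the sorted fractions, since the 1:1 erbB2-positive mean was 7.87 (positive minus negative 0.08, adjusted p = 0.513), and MMTV-neu read 8.06. Whether this mouse probe set reads the transgene was not tested. Erbb3, the kinase-poor partner of ErbB2, fell from 8.81, 8.65 and 8.95 to 7.45, 7.63 and 7.77 (-1.18, adjusted p = 0.000185). Egfr differed by -0.41 (adjusted p = 0.142) and Erbb4 by 0.21, neither of them called.

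Several feedback genes of the ERBB and MAP kinase pathway fell. Over the list of 28 receptors, ligands and feedback genes 15 fell and 1 rose, 15 fell without replicate 1, and the median of -0.46 was -0.05 after centring (9 fell and 6 rose) and -0.26 after quantile normalization. Errfi1 (Mig6), a direct inhibitor of EGFR and ErbB2, fell from 11.37, 11.39 and 11.44 to 10.3, 10.01 and 10.28 (-1.21, adjusted p = 1.25e-05). Dusp6, the ERK phosphatase, fell from 10.6, 10.53 and 10.65 to 9.38, 9.35 and 9.26 (-1.26, adjusted p = 0.000318). Dusp4, its nuclear relative, read 7.0, 7.0 and 7.74 against 8.56 to 8.64 (-1.35, adjusted p = 6.27e-05). Spry1 (Sprouty 1), which damps receptor tyrosine kinase signalling, fell by 1.29, and Phlda1 by 1.15. Without replicate 1 the differences of Errfi1, Dusp6, Dusp4, Spry1 and Phlda1 were -1.26, -1.29, -1.23, -1.44 and -1.21, and all 5 remained called. Other feedback genes, named after their values were seen, were not called: Dusp5 differed by 0.22, Spry4 by 0.21, Etv4 by 0.27 and Spred2 by -0.24, and Spry4 and Etv4 were called higher after centring.

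Immediate early and heat shock genes had the lowest median of any list, -0.86, and 20 of 26 fell (13 without replicate 1, median -0.77). After centring the median was -0.44, with 11 lower and 2 higher. Fos fell from 10.34, 10.41 and 10.49 to 8.98, 8.38 and 9.14 (-1.58, SE 0.16, adjusted p = 9.35e-06). Fosb fell by 2.08 and Jun, which pairs with Fos in AP-1, fell by 1.31. Nr4a1, an orphan nuclear receptor induced by the same signals, fell by 1.47. Socs3, the feedback inhibitor of cytokine signalling, fell from 9.98, 9.93 and 10.0 to 8.18, 8.01 and 8.06 (-1.89, adjusted p = 2.09e-06), while a lower-reading probe set of it gave -0.31 (adjusted p = 0.189). Zfp36 and Atf3 were uneven among the fraction arrays, with replicate 3 the least lowered at 8.75 and 9.1 against 9.32 to 9.42 and 9.71 to 9.77 in Comma-D. These genes are known to answer handling of cells as well as growth factors, and since the labels do not say that both groups were handled alike, handling and co-culture cannot be told apart here.

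Among 27 chemokine and interleukin genes 11 fell and 3 rose (9 and 1 without replicate 1), with a median of -0.42 that was near 0 after centring, where 9 rose and 5 fell. Beside Il6, Cxcl12, a stromal chemokine, fell from 11.22, 11.17 and 11.18 to 9.53, 9.87 and 9.88 (-1.43, adjusted p = 3.2e-05). Ccl2, a monocyte attractant, fell by 1.59, Lif, a cytokine of the Il6 family, by 1.12, and Cxcl16 by 1.20. Promoters of 19 of the 27 genes were in the RefSeq table, and 4 of them (21.1%) held an NF-kappaB motif on either strand within 250 bases before the start, against 0.461% of 15614 genes. The motif searched has 10 bases, as in the capitals of Il6, with any base allowed at the fifth. Of these 4 genes Il6 and Csf1 fell, Csf1 by 0.43 (named after its value was seen; called in 2 of 6 fits, and 0.01 after quantile normalization), while Cxcl1 and Cxcl2 differed by -0.44 and -0.06 and were not called. The Il6 window, GRCm38.p6 chr5:30012864-30013113 on the plus strand, is shown because Il6 had the deepest fall of the list, with the motif in capitals. It lies within the annotated locus A230098N10Rik.

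Il6: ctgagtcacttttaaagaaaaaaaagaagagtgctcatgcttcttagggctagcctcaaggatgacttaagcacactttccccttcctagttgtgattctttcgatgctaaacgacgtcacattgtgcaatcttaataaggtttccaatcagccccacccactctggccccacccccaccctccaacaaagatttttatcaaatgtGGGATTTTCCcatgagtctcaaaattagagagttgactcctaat

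Of 26 lysosome genes 22 fell (12 without replicate 1), and the median of -0.74 was below the -0.50 of the highest quartile, in which 24 of them lay. After centring the median was -0.32, with 8 lower, and after quantile normalization -0.36, with 4 lower. Ctsb, the protease cathepsin B, fell from 11.49, 11.51 and 11.57 to 10.05, 10.43 and 10.54 (-1.18, adjusted p = 0.000512). Gla, the alpha-galactosidase, fell from 8.63, 8.73 and 8.65 to 7.65, 7.65 and 7.97 (-0.91, adjusted p = 2.71e-05). Subunits of the proton pump fell too, among them Atp6v1h by 1.03 and Atp6v1a by 0.92. The membrane protein Lamp2 fell by 0.72, a call made in 2 of 6 fits (adjusted p = 0.141 without replicate 1), and Lamp1 differed by -0.57 (adjusted p = 0.111).

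The E-box CACGTG, a palindrome bound by TFEB, MYC and related factors, lay within 250 bases before the start in 8 of the 21 lysosome genes with a promoter in the RefSeq table (38.1%), against 8.11% of 15614 genes. Among the 8, Gla, Ctsa, Atp6v1a, Ctsl, Ctsd and Mcoln1 fell, and Lamp1 and Glb1 (-0.04) were not called, the names outside the naming rule being taken after their values were seen. After centring and after quantile normalization the calls of Ctsa, Ctsl, Ctsd and Mcoln1 were lost. The match is a description of the letters. The promoter of Ctsd, which encodes cathepsin D, is shown for its 2 copies, in capitals, in GRCm38.p6 chr7:142387828-142388077 on the minus strand. Ctsd itself fell by 0.74 (adjusted p = 0.027; -0.50 and 0.168 without replicate 1) and, like Mcoln1, was called in 2 of 6 fits, while Ctsl was called in 5.

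Ctsd: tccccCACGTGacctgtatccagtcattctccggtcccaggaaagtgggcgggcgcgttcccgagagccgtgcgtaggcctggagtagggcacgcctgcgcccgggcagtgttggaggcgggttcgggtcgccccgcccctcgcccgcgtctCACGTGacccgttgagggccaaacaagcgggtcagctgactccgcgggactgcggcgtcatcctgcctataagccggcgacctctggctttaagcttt

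Single members of the IGF axis and of the milk protein genes fell deeply. Igf2, a growth factor, fell from 9.79, 9.9 and 10.22 to 7.28, 6.99 and 7.38 (-2.75, SE 0.14, adjusted p = 2.58e-09). Insr, the insulin receptor, fell by 1.41, Igfbp5 by 1.45, Htra1, a protease of IGF-binding proteins, by 1.10, and Igf1 by 1.03. Of 16 measured members 8 fell and Igfbp3 rose (7 and 1 without replicate 1), and the median of -0.64 was -0.23 after centring. Among 20 milk and lactation genes 7 fell and 2 rose (7 fell without replicate 1), with a median of -0.16 that turned to 0.26 after centring. Csn3 (kappa casein) fell from 6.87, 6.7 and 7.35 to 4.79, 4.8 and 4.8 (-2.18, adjusted p = 4e-08), levels below the array medians. Ltf (lactoferrin) fell by 1.82 and Xdh, a milk fat globule enzyme, by 1.56. The caseins Csn1s1 and Csn2 differed by -0.05 and 0.01 and were not called. Lcn2 (lipocalin 2) read 11.31, 9.42 and 10.08 against 11.78 to 11.79, so its replicate 1 lay closest to Comma-D (-1.52, adjusted p = 0.00429).

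Of 26 matrix proteases and inhibitors 14 fell and 2 rose (10 and 1 without replicate 1), with a median of -0.49, or -0.07 after centring. The highest quartile by Comma-D level held 14 of the 26. Mmp13, a collagenase, fell from 7.39, 7.41 and 7.64 to 6.1, 5.51 and 5.46 (-1.79, adjusted p = 0.000771), and Mmp19 fell by 1.20. St14 (matriptase), an epithelial surface protease, read 7.71, 7.93 and 8.5 against 9.25 to 9.36 (-1.28, adjusted p = 0.000134). Its inhibitors Spint1 and Spint2 fell with it, by 1.07 and 1.12.

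Of 24 TGF-beta, BMP and ID genes 9 fell and 3 rose (7 and 2 without replicate 1), and the median of -0.46 was -0.05 after centring, where 7 rose and 3 fell. Of these 24 genes 17 lay in the highest quartile by Comma-D level, where 53.5% of all genes were called lower. Among the receptors, Tgfbr1 fell from 8.81, 8.79 and 8.91 to 7.35, 7.61 and 7.64 (-1.30, adjusted p = 9.31e-06), Tgfbr3 by 1.71 and Tgfbr2 by 0.87. Among BMP ligands Bmp4 fell by 0.95 (lost after centring) and Bmp7 rose by 0.95, and Ltbp2, a latent TGF-beta binding relative, rose by 1.01. Of 20 Notch genes 7 rose and 7 fell (3 and 6 without replicate 1), with a median of 0.06, or 0.47 after centring. The ligand Jag1 rose from 7.89, 7.95 and 8.04 to 8.1, 9.06 and 8.74 (0.67, adjusted p = 0.0357, called in 1 of 6 fits), the receptor Notch1 fell by 0.81, the ligand Dll1 by 0.89 and the target Hey1 by 1.14. In the Wnt list of 28, 7 rose and 9 fell (3 and 8 without replicate 1), with a median of 0.10, which was -0.04 without replicate 1 and 0.52 after centring. The co-receptor Lrp5 fell by 1.02, the receptor Fzd7 by 1.21 and the secreted inhibitor Sfrp1 by 1.07.

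Most members of the stress and housekeeping lists lay in the highest quartile by Comma-D level, whose median was -0.50. Unfolded protein response genes fell in 13 of 30 cases (2 without replicate 1; median -0.51, or -0.09 centred), nuclear-encoded respiratory chain genes in 13 of 27 (2 without replicate 1; -0.50, or -0.08) and aminoacyl-tRNA synthetases in 8 of 17 (1 without replicate 1; -0.47, or -0.06). Proteasome subunits had a median of -0.34, or 0.07 centred, with 4 of 28 lower, 0 lower without replicate 1 and 2 higher after centring, all by limma (9 were lower at an unadjusted p under 0.05 with all arrays). Splicing factors had a median of -0.16, or 0.26 centred. Of 27 splicing factors 4 rose and 8 fell, 4 and 1 without replicate 1, and 9 rose and 0 fell after centring by limma (9 were lower at an unadjusted p under 0.05 as deposited). Among those that rose were Hnrnpd by 1.0 and Srsf1 by 0.70. Of 26 ribosomal protein genes 2 rose and none was called lower by limma (1 at an unadjusted p under 0.05), with a median of -0.18, or 0.24 centred. Of 18 YAP targets, 14 of which lay in the highest quartile, 7 fell (4 without replicate 1; median -0.40, or 0.01 centred). NRF2 and glutathione genes fell in 13 of 24 cases (7 without replicate 1; median -0.46, or -0.05 centred), and here single genes went deeper. Mgst1, a microsomal glutathione transferase, fell from 10.34, 10.23 and 10.36 to 7.96, 8.11 and 8.66 (-2.07, adjusted p = 5.57e-06), Hmox1 (heme oxygenase 1) fell by 1.44, and Nfe2l2, which encodes NRF2, by 1.04. Among 25 genes of hypoxia and glycolysis 14 were lower and 1 was higher (8 and 1 without replicate 1; median -0.40, or 0.02 centred). Hk2 (hexokinase 2) fell from 8.24, 8.05 and 8.36 to 7.1, 6.98 and 7.26 (-1.10, adjusted p = 4.66e-05), and Eno2, an enolase, by 1.06. Of 25 cholesterol and fatty acid genes 3 were higher and 4 lower, but 1 and 0 without replicate 1 and 7 and 0 after centring, by limma (4 higher and 7 lower at an unadjusted p under 0.05 as deposited). Their median of -0.25 was 0.10 without replicate 1 and 0.16 centred.

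The fraction arrays disagreed on proliferation genes. No mitosis gene of 27 was called by limma at an adjusted p under 0.05, and 0 of 27 passed an unadjusted p under 0.05. The median difference of the list was -0.80, -0.18 and 0.59 in replicates 1, 2 and 3. Mki67, which encodes the proliferation antigen Ki-67, read 7.35, 8.93 and 9.49 against 9.06, 9.15 and 9.2 in Comma-D, and Ccna2 (cyclin A2) read 7.85, 9.56 and 10.35 against 9.92 to 10.0. Replicate 1 was below, replicate 3 above and replicate 2 close to Comma-D in both genes. Mad2l1, a spindle checkpoint gene, followed the same order with 7.32, 9.11 and 9.91. Of 29 DNA replication genes 2 rose and 1 fell, and of 17 cyclin D, CDK inhibitor and p53 genes 8 fell and 2 rose (2 fell without replicate 1). Ccnd1 (cyclin D1) fell from 11.54, 11.56 and 11.62 to 10.11, 10.79 and 10.83 (-1.0, adjusted p = 0.00302). H4c3, a replication-dependent histone gene, rose by 1.18 (adjusted p = 0.000263), and histone genes as near-identical copies can share signal.

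Interferon-stimulated genes fell in 8 of 24 cases (4 without replicate 1), with a median of -0.21 that turned to 0.21 after centring. Trim30a, a regulator of innate signalling, fell from 8.45, 8.56 and 8.11 to 6.48, 6.23 and 6.44 (-1.99, adjusted p = 1.23e-07), and Ifit3 fell by 0.94. Of 10 class I antigen presentation genes, 4 of which lay in the highest quartile by Comma-D level, 4 fell and 1 rose (2 fell without replicate 1). Their median was -0.41, or 0.01 after centring. B2m, the light chain of class I molecules, read 11.38, 11.45 and 11.55 against 12.06 to 12.1 (-0.62, adjusted p = 0.0278, called in 1 of 6 fits; 0.0977 without replicate 1).

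Of 302 microRNA genes measured, 58 (19.2%) were higher and 11 (3.64%) lower, beside 14.9% and 20.9% of all genes. Without replicate 1, 13 (4.3%) were higher and 8 (2.65%) lower, beside 4.3% and 10.2% of all genes. The array probes do not measure the mature form. The largest rise was in Mir25, from 7.27, 7.0 and 6.77 to 9.68, 9.04 and 8.81 (2.16, SE 0.28, 4.47-fold, adjusted p = 7.42e-05; 1.91 without replicate 1), toward the 10.28 of MMTV-neu. It belongs to a cluster on chromosome 5, minus strand, with Mir106b (1.08, adjusted p = 0.00264) and Mir93 (0.58, adjusted p = 0.0343, called in 1 of 6 fits; 0.197 without replicate 1), both named after their values were seen. All 3 hairpins lie within chr5:138165321-138165818 of GRCm38.p6 and moved the same way. The mature arms are shown, with the seed in capitals, because miR-93-5p and miR-106b-5p share the seed AAAGUGC and miR-25-3p has another.

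mmu-miR-25-3p: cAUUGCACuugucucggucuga
mmu-miR-93-5p: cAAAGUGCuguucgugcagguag
mmu-miR-106b-5p: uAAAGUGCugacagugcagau

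A second cluster moved the other way. Mir27a fell from 9.13, 9.11 and 9.53 to 7.58, 7.55 and 8.33 (-1.44, adjusted p = 0.000417), and its neighbours Mir23a and Mir24-2, named after their values were seen, fell by 1.24 and 0.75 (adjusted p = 0.000972 and 0.00302, the last lost after centring). Their hairpins lie within chr8:84208518-84208921 of GRCm38.p6, plus strand. In the 1:50 erbB2-negative fraction all 3 were low too, at means of 8.03, 7.86 and 7.17. The mature arms show that each of the 3 has a seed of its own, again in capitals.

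mmu-miR-23a-3p: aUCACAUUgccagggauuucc
mmu-miR-27a-3p: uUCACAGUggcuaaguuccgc
mmu-miR-24-3p: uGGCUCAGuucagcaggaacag

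Outside these clusters Mir145a fell by 1.39 (adjusted p = 0.000125) and the small nucleolar RNA genes Snord118 and Snord73b fell by 1.49 and 1.48.

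In the fraction 26 genes lay above both lines (0.13%) and 246 below both (1.23%), each called against Comma-D and against MMTV-neu. Without replicate 1 there were 37 (0.186%) and 179 (0.898%), and 24 and 145 of the original genes remained. After quantile normalization there were 45 above and 56 below. Because both lines were compared with the same 3 fraction arrays, these counts are a description.

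Among the genes farthest above both lines, Tnnt2, a troponin, read 8.88, 10.12 and 10.3 in the fraction against 8.4 to 8.42 in Comma-D and a mean of 8.93 in MMTV-neu (fraction minus Comma-D 1.35, adjusted p = 0.00769). Actg2, a smooth muscle actin, read 9.31, 10.5 and 10.69 against 9.19 to 9.31 and 7.42 (0.92, adjusted p = 0.0469, called in 1 of 6 fits). In both genes replicate 1 lay next to Comma-D, and without it the differences were 1.80 and 1.35. Csrp2, a LIM protein of smooth muscle, and Rflnb, a filamin regulator, showed the same order (1.31 and 1.12 without replicate 1; called in 2 and 5 of 6 fits), while Cdh3 (P-cadherin), a basal cadherin, rose in all 3 arrays, at 9.29, 9.39 and 8.88 against 8.3 to 8.4. Vnn1, a pantetheinase, and Vsnl1, a calcium sensor, ran the opposite way among replicates, with 8.76, 7.32 and 6.81 for Vnn1 and 9.4, 8.86 and 7.84 for Vsnl1. The 1:50 erbB2-negative means of these 7 genes and Krt5 were 9.69, 10.63, 8.99, 9.68, 9.48, 8.0, 9.4 and 11.3, in the order named, each above the means of both lines.

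Among the genes farthest below both lines, Fstl4, a follistatin-like gene, read 6.32, 6.56 and 6.6 against 7.97, 8.05 and 8.06 in Comma-D and 7.22 in MMTV-neu (-1.53, adjusted p = 5.58e-06). Zfp750, an epidermal differentiation factor, read 6.94, 6.98 and 7.03 against 8.28 to 8.42 and 7.6 (-1.37, adjusted p = 2.29e-05). Vtcn1 (B7-H4), an inhibitory ligand of T cells found on mammary epithelium, read 6.89, 7.22 and 7.14 against 8.4 to 8.65 and 7.78. Ddr2, a collagen receptor, fell by 1.30, Atp10b, a lipid flippase, by 1.42 and Rbm47, an epithelial RNA-binding protein, by 0.92. For Fstl4 and Zfp750 the 1:50 erbB2-negative means, 8.1 and 8.3, were at the Comma-D level. Of the 246 genes 98 were also called lower than the 1:50 erbB2-negative fraction, beside 21.4% of all genes. The 246 genes were picked for low values in the same fraction arrays that enter this contrast. Such calls were thus favoured in advance, and the count is a description.

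**Figure D5:**
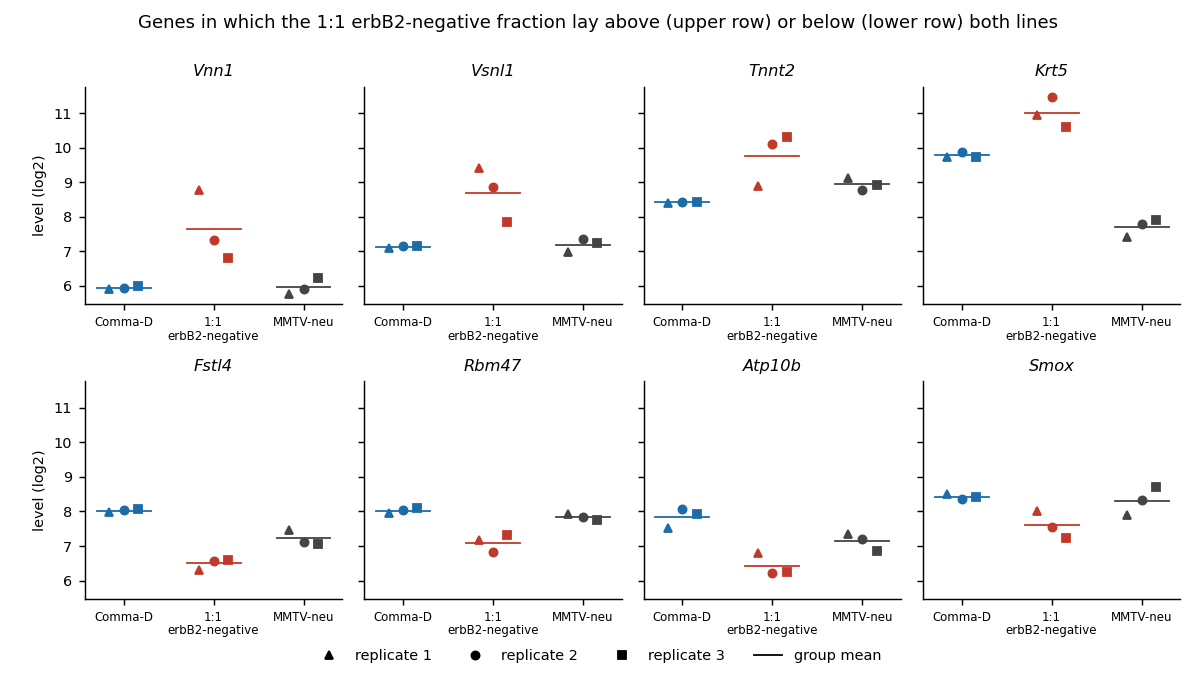
Log2 levels in Comma-D, the 1:1 erbB2-negative fraction and MMTV-neu (points, 1 shape per replicate; lines, means) of 4 genes above both lines (upper row) and 4 below (lower row), those farthest outside. Fraction replicate 1 is highest for Vnn1 and Vsnl1 and lowest for Tnnt2, and the arrays of Fstl4 lie together.

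Against the erbB2-negative fraction of the 1:50 co-culture, a comparison that uses no Comma-D array, 6041 genes differed (30.3%), 1768 higher (8.87%) and 4273 lower (21.4%) in the 1:1 fraction. Without fraction replicate 1 there were 1065 (5.34%), a fit of those 2 groups alone called 2, and with the replicate number as a block in the 12 co-culture arrays 9438 were called. Leaving out any one of the 1:50 arrays gave 2624 to 3178. The split depended on the scaling. After centring 5644 genes were higher and 370 lower in the 1:1 fraction, and after quantile normalization 436 and 374. List counts and medians for this comparison are given as deposited only. Among the rises were those of Krt8 (2.86, adjusted p = 7.31e-07), Camta1 (1.67), Rps14 (1.57) and the homeobox gene Hoxc10 (1.49, adjusted p = 0.00148), with the disagreement of the Camta1 and Rps14 probe sets given above. Il6 (-2.22, adjusted p = 0.000672), Ehf (-2.15, adjusted p = 7.81e-05), Gabrp (-2.12), Ceacam1 (-1.98) and Slc5a8, a monocarboxylate transporter (-1.96), were lower. Dcn, Igf2 and Itih2 did not follow: their differences between the fractions were 0.17 (adjusted p = 0.407), 0.38 (adjusted p = 0.0476) and -0.29 (adjusted p = 0.146). Minus Comma-D the 1:50 fraction read -3.41, -3.13 and -2.65 for these 3 genes, beside -3.24, -2.75 and -2.93 in the 1:1 fraction. Of 27 junction genes 15 were lower and 1 higher in the 1:1 fraction (median -0.65), and of 24 interferon-stimulated genes 19 were lower (median -0.65). Against Comma-D the interferon-stimulated list had a median of 0.36 in the 1:50 fraction (4 higher, 1 lower) and -0.21 in the 1:1 fraction. For Fos, Errfi1 and Dusp6 the fractions differed by 0.01, -0.12 and 0.19, none called.

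The erbB2-positive cells of the same co-culture differed from the erbB2-negative ones in 11195 genes (56.1%), 7017 higher (35.2%) and 4178 lower (21.0%) in the positive fraction, 6904 in a fit of those 2 groups alone. After centring 14916 were higher and 1341 lower, and after quantile normalization 4175 and 3280. Hoxc10 was the gene most above, by 1.36 (adjusted p = 0.00034), with Hoxc6, of the same cluster, at 1.02 (adjusted p = 0.000403) and Macrod2 at 1.04. Probe sets of Macrod2 disagreed, since for fraction minus Comma-D the one used gave 1.05 and the others -0.03 to 0.67. Gstp1, a glutathione transferase, was lower by 2.24 (adjusted p = 4.19e-06) and the antioxidant enzyme Prdx2 by 2.39 (adjusted p = 0.00103). In the negative fraction Prdx2 read 9.92, 10.6 and 10.79, all below the 10.91 to 10.99 of Comma-D (not called, adjusted p = 0.404). It stood far above its mean of 4.59 in MMTV-neu. Xist, the long RNA of X inactivation, likewise had a mean of 5.81 in MMTV-neu and read 10.67, 11.37 and 11.33 in the fraction against 11.7 to 11.78 (-0.61, adjusted p = 0.0638). Krt8, by contrast, differed by only 0.53 between the positive and the negative fraction (adjusted p = 0.0273).

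Of the genes that set the 2 lines apart by at least 2 log2 units, 80 were higher in MMTV-neu (median 2.17) and 1561 lower (median -2.63). Beside these, the median fraction minus Comma-D difference was 1.01 for the 80 (1.46, 0.88 and 0.68 in replicates 1 to 3) and -0.72 for the 1561 (-1.23, -0.50 and -0.42). Both differences subtract the same 3 Comma-D arrays, so they are given side by side and not as support for each other.

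Single genes set replicate 1 apart in both senses, beyond the proliferation genes. F13a1, the A chain of coagulation factor XIII, read 9.01, 6.22 and 5.92 in the fraction against 8.77 to 8.94 in Comma-D and a mean of 6.33 in MMTV-neu. Replicate 1 thus held the Comma-D level of this gene while replicates 2 and 3 held that of the tumour line (-1.80, adjusted p = 0.025, called in 1 of 6 fits; -2.78 without replicate 1). Dio2, a thyroid hormone deiodinase, read 7.87, 6.48 and 6.23 against 8.62 to 8.7, and Il6 and Lcn2 had the same order. Wnt5a, a secreted Wnt ligand, read 8.61, 7.62 and 7.05 against 7.54 to 7.73 and was not called (adjusted p = 0.803). On the low side, Nox4, an NADPH oxidase, read 6.21, 8.0 and 8.09 against 9.0 to 9.2 and Msmo1, an enzyme of sterol synthesis, 7.53, 9.21 and 9.65 against 9.02 to 9.06. For F13a1, Dio2, Il6 and Lcn2 replicate 1 was therefore nearer to Comma-D than the other arrays, against its position over the whole array.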

How the data were processed

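The deposited table holds RMA values on the log2 scale, per the submitters' processing notes, which also name R 3.1.2 and limma. Neither summarisation nor filtering is described in the labels or headers. Depth has no meaning for arrays, and 3 arrays a group limit the precision. Of 35556 probe sets, 21789 had 1 gene, 1621 several and 12146 none in the platform annotation, and 21698 matched RefSeq (GRCm38.p6) by gene ID. Each of 19938 genes is its single-gene probe set with the highest mean over the 18 arrays, with no filter. Differences were fitted with limma 3.58.1 in R 4.3.3 (lmFit, eBayes; 6 group means, 12 residual degrees of freedom, two-sided, Benjamini-Hochberg). The fit was also run on simulated data, in which a gene had the same spread in every group and no array stood apart. It therefore cannot show how the calls behave with an array like fraction replicate 1. Members, lists and tests were chosen with earlier results of these data known. Named genes are the 15 largest rises and falls whose arrays do not overlap, the first 4 and 6 most changed members of each list, those farthest outside both lines, the most different between fractions and between fraction arrays, and a fixed set, exceptions being marked. Same-numbered arrays were checked for pairing by the correlation of their deviations from group means. With Comma-D it was 0.033, -0.162 and 0.246, the highest value of its fraction array for replicate 3 only (read as no pairing). With the 1:50 erbB2-negative fraction it was 0.336, 0.221 and 0.429, each the highest of its fraction array (read as paired). With the 1:1 erbB2-positive fraction it was 0.628, 0.218 and 0.602. There fraction replicate 2 correlated more with positive replicate 3 (0.438), so pairing was seen for replicates 1 and 3 only. Promoters and microRNAs are from RefSeq. Alternatives were other filters, probe set rules, priors, array weights, scalings, blocks, array sets and thresholds.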

Additional observations from a re-analysis of the deposited data

Results flagged for a closer look

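The 1:1 and 1:50 erbB2-negative fractions, which were sorted the same way from co-cultures of different ratio, differed in 6041 genes by limma in a direct contrast of these fractions. A fit of those 6 arrays alone called 2 genes, and leaving out fraction replicate 1 left 1065.

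Among the 12146 probe sets without a gene in the annotation, which enter no comparison above, 1158 were higher and 1549 lower in the fraction than in Comma-D. Both are smaller shares than the 14.9% higher and 20.9% lower among the genes tested. These probe sets were fitted apart, with an adjustment of their own, and were not counted without replicate 1.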

How the results depend on the processing

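Of 170 genes named with values, 145 were called against Comma-D. Erbb2 changed sign to 0.02 after centring on reference genes and Csf1 to 0.01 after quantile normalization. No other named gene that was called as deposited or in the setting reversed in the 15 settings run. Genes called in neither were not counted, and some of them changed sign. Without fraction replicate 1 Mki67 went from -0.54 to 0.08 and Mad2l1 from -0.41 to 0.32. Calls were lost for 18 genes after centring (Krt7, Krt6a, Zeb1, Zeb2, Lama4, Fbln1, Csf1, Lamp2, Ctsa, Ctsl, Ctsd, Mcoln1, Bmp4, Notch1, Dll1, B2m, Mir24-2 and F13a1), 35 after quantile normalization (Krt19, Krt7, Tjp1, Ctnnd1, Dsg3, Zeb1, Fbln1, Erbb2, Phlda1, Zfp36, Atf3, Atp6v1h, Atp6v1a, Lamp2, Ctsa, Ctsl, Ctsd, Mcoln1, Lcn2, Tgfbr2, Bmp4, Notch1, Dll1, Hey1, Fzd7, Sfrp1, Hmox1, Nfe2l2, Eno2, B2m, Mir93, Mir24-2, Gstp1, F13a1 and Nox4) and 10 without fraction replicate 1 (Vnn1, Dsg3, Jag2, Csf1, Lamp2, Ctsl, Ctsd, Mcoln1, B2m and Mir93).

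Calls against Comma-D, 7121 in all, numbered 12168 with array weights, 2349 after quantile normalization, 4231 in a fit of the 6 compared arrays, 2990 at an adjusted p under 0.01 and 560 with at least 1 log2 unit. Leaving out 1 array gave 2885 to 9193. For the 1:1 against the 1:50 erbB2-negative fraction, 6041 in all, the same settings gave 12521, 810, 2, 1174 and 230, and 1065 to 8726 with 1 array left out. For the 1:1 positive against negative fraction, 11195 in all, quantile normalization gave 7455, the compared arrays alone 6904, an adjusted p under 0.01 7049, at least 1 log2 unit 1626 and no low genes 7167, and leaving out 1 array gave 6737 to 13221. Genes outside both lines, 272 in all, numbered 176 without low genes, 918 with array weights, 101 after quantile normalization, 147 from the compared arrays, 73 at 0.01, 3 with at least 1 log2 unit and 151 to 306 with 1 array left out. Fewer genes, fewer arrays or a stricter threshold account by construction for part of this, and the cause of the rest was not tested. The mean position of 26.0% ranged from 19.5% to 31.5%.

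The replicate number as a block gave 8320 calls against Comma-D. The labels do not say whether same-numbered arrays of these groups share a batch, and no pairing was read from their correlations. Among the 12 co-culture arrays, a block added after the data were seen gave 9438 and 13117 calls against the 1:50 and the positive fraction. No other block moved a count by over 1.5 times.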
